A study of Mus musculus with 85 samples.

Results

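Toll-like receptors sense microbial products and products of damaged cells. The genes described here are 6 of these receptors (Tlr2, Tlr3, Tlr4, Tlr7, Tlr9 and Tlr13), the accessory proteins Cd14, Ly86 and Ly96, and the adaptor Myd88. They were chosen by gene symbol from a table of hippocampal gene expression, and rows with an equal symbol were summed. All 10 were found among 53895 rows, and 8 of the 10 reached the level at which rows were tested (at least 1 FPKM in at least 10 libraries), as did 21145 rows in all. Tlr9 and Ly96 stayed under 1 FPKM in every mouse. Of the 20 mice with Tlr2 at 1 FPKM or more, 19 carried the transgenes, so Tlr2 reached the tested rows mainly through those mice. Its genotype difference averaged over sex and feed is also given with no such limit. The other genotype results of Tlr2, and the shares of rows beside them, rest on the tested rows and carry this limit.

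Receptors of this family sit either in the plasma membrane or in endosomes. Tlr2, which binds bacterial lipopeptides, and Tlr4, the receptor for lipopolysaccharide, act at the cell surface. Cd14 hands lipopolysaccharide to Tlr4, and Ly96 (MD-2) is the part of the Tlr4 complex that binds it. Ly86 (MD-1) is the secreted partner of Cd180, a surface receptor related to Tlr4. Tlr3 (double-stranded RNA), Tlr7 (single-stranded RNA), Tlr9 (unmethylated CpG DNA) and Tlr13 (bacterial ribosomal RNA, in mice) act in endosomes. Myd88 carries the signal from all of these receptors except Tlr3 to NF-kB, a transcription factor that turns on cytokine genes. In the brain these genes are known mainly from microglia, the resident macrophages, with Tlr3 and Tlr4 also described in astrocytes.

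Total RNA of the hippocampus was sequenced from 85 mice aged 8 months, with 1 library for each. Control mice were C57BL/6J, and the mice called AD in the labels were of a transgenic strain, known to express its transgenes from the prion protein promoter and to deposit amyloid plaques. The feed was either standard or restricted in methionine, which with sex and genotype made 8 groups. In females there were 10 controls (FWT) and 11 AD mice (FAD) on the standard feed, and 10 controls (FWTMR) and 11 AD mice (FADMR) on the restricted feed. In males the numbers were 11 controls (MWT) and 11 AD mice (MAD) on the standard feed, and 10 controls (MWTMR) and 11 AD mice (MADMR) on the restricted feed. Levels below are FPKM, fragment counts scaled to transcript length and to library size, after scaling between libraries, and every n counts mice.

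The libraries summed to between 939248 and 1066927 FPKM. Between 17973 and 20441 rows were at 1 FPKM or more. The hippocampal marker Neurod6 was at 823 to 3388 FPKM, while C1ql2, a marker of the dentate gyrus, ranged from 0.588 to 116. Read depth is unknown, so precision rests on the spread between mice. Differences are on the scale log2(scaled FPKM + 1), which understates the change of genes at low levels, and are given with their standard error (SE). The test was limma over all 21145 rows with Benjamini-Hochberg adjustment and a threshold of 0.05. Splits of the rows past the threshold depended on the scaling. Of the rows past it between sexes, 47.8% were higher in females after scaling and 68.8% with FPKM as deposited. For genotype in all females the share higher in AD mice was 54.3% and 32.8%, in all males 48.6% and 75.8%, in males on restricted feed 80.8% and 100%, in females on restricted feed 69.3% and 56.2%, and for the difference of the genotype effect between sexes 33% and 13.6%. For sex among controls the shares higher in females were 47.6% and 70.7%, and among AD mice 40.8% and 70.6%.

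The promoter sequences of genes whose levels moved with genotype (Tlr2, Tlr13 and Ly86) are printed here beside that of Tlr3, whose level did not pass the test, because NF-kB and the myeloid factor PU.1 are known to drive many receptor genes. They come from RefSeq on build GRCm38.p6 and run from 250 bases before to 50 bases after the annotated start, read 5′ to 3′ on the strand of the gene. The regions are chr3:83841559-83841858 (minus strand) for Tlr2, chr8:45410331-45410630 (minus strand) for Tlr3, chrX:106143025-106143324 (plus strand) for Tlr13 and chr13:37345095-37345394 (plus strand) for Ly86. For Tlr13 and Ly86 the start is the edge of the gene's locus given below, while for Tlr2 and Tlr3 the table uses a start 216 and 695 bases inside it, so the whole Tlr3 window and the motif of Tlr2 lie within the annotated locus. Capitals mark a match to the NF-kB consensus (first and last bases fixed, the middle ones partly free) or to the PU.1 core GAGGAAG.
Tlr2 promoter: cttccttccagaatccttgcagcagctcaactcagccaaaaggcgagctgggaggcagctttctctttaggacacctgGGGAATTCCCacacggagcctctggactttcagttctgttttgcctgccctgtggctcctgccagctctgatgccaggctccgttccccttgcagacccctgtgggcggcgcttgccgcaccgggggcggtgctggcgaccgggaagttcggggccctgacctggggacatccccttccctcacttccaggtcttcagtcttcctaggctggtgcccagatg
Tlr3 promoter: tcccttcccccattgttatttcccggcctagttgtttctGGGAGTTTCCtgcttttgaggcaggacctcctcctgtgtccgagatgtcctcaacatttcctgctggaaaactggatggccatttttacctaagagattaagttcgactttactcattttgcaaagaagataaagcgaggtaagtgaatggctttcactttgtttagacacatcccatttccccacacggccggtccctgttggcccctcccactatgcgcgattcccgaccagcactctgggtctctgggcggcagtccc
Tlr13 promoter: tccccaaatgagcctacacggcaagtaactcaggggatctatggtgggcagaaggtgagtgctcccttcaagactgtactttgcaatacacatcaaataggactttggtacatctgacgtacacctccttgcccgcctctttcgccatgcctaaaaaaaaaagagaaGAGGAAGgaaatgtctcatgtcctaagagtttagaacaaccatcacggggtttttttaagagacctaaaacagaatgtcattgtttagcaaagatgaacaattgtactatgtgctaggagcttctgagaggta
Ly86 promoter: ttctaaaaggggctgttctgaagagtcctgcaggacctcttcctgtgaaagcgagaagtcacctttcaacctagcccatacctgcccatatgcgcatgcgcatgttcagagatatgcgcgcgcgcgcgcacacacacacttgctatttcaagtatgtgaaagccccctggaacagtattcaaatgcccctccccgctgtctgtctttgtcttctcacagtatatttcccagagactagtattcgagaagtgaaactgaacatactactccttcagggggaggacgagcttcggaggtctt
Both motifs and the interferon-stimulated response element were searched on both strands. The NF-kB motif lay at -172 to -163 in Tlr2, where its palindrome GGGAATTCCC is read on both strands, and as GGGAGTTTCC at -211 to -202 in Tlr3. The PU.1 core lay at -83 to -77 in Tlr13. Ly86 held none of the 3 motifs in this window. Of the other promoters in the RefSeq set, that of Tlr9 held the PU.1 core at -112 to -106 and, on the opposite strand, at 12 to 18, and that of Myd88 held GAAAGCGAAA at -40 to -31. Of 32851 promoters of the same length, 4.79% held the NF-kB motif, 13.6% the PU.1 core and 3.44% the interferon-stimulated response element. A match is a description of the letters and not of a bound site. The promoters of Tlr4, Tlr7, Cd14 and Ly96 were not analysed here.

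Tlr7 and Tlr13 are both on the X chromosome, at 167303380-167330574 (minus strand) and 106143275-106160493 (plus strand). Tlr2 lies on chromosome 3 at 83836272-83841824 (minus strand) and Tlr4 on chromosome 4 at 66827551-66846581 (plus strand). Ly86 lies on chromosome 13 at 37345345-37419036 (plus strand), and its deposited row also names the predicted gene Gm40913, so its value is that of the joined locus. Tlr3, on chromosome 8 at 45395665-45411075 (minus strand), overlaps the antisense gene Gm45542. Myd88, on chromosome 9 at 119335934-119340018 (minus strand), overlaps Slc22a14 on its own strand and Acaa1a on the other. Whether fragments were assigned by strand is not given in the sources used here, so reads from these neighbours cannot be told apart.

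Ly86 had the highest level of the 10 genes in all 85 mice, with a median of 22.6 FPKM. The endosomal RNA sensors Tlr7 (median 5.24) and Tlr13 (4.43) followed, and Tlr7 was above Tlr13 in 69 of 85 mice. Tlr4 (2.44), Myd88 (2.16) and Tlr3 (2.09) lay close together. Tlr4 exceeded Myd88 in 56 of 85 mice and Myd88 exceeded Tlr3 in only 44 of 85, so the order of these 3 was not stable from mouse to mouse. Cd14 (1.05) and Tlr2 (0.713) were lower, and Cd14 was above Tlr2 in 76 mice. Ly96, the lipopolysaccharide-binding partner of Tlr4, was at a median of 0.0990 FPKM and Tlr9 at 0.0722, and Tlr9 was listed at 0 in 6 libraries.

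Across sex and feed, Ly86, Cd14, Tlr2, Tlr7 and Tlr13 were higher in AD mice than in controls. These are 5 of the 8 tested genes, against 1.22% of all tested rows that were higher in AD mice. The difference was largest for Ly86, at 0.73 ± 0.06 (SE; adjusted p 2.86e-16). It was 0.42 ± 0.06 for Cd14 (adjusted p 1.01e-06) and 0.35 ± 0.05 for Tlr2 (adjusted p 1.94e-07). For the endosomal receptors it was 0.34 ± 0.06 for Tlr7 (adjusted p 0.000104) and 0.31 ± 0.07 for Tlr13 (adjusted p 0.0101). With no limit on low values, the difference of Tlr2 had an adjusted p of 2.84e-07. The differences of Tlr4 (0.21 ± 0.06, adjusted p 0.0719), Tlr3 (0.14 ± 0.07, adjusted p 0.366) and Myd88 (0.05 ± 0.03, adjusted p 0.470) did not pass. In the fit with no limit on low values, Ly96 differed by 0.02 ± 0.01 (adjusted p 0.224) and Tlr9 by 0.01 (adjusted p 0.782). In whole tissue, more cells of a type and more RNA per cell cannot be told apart.

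**Figure D1:**
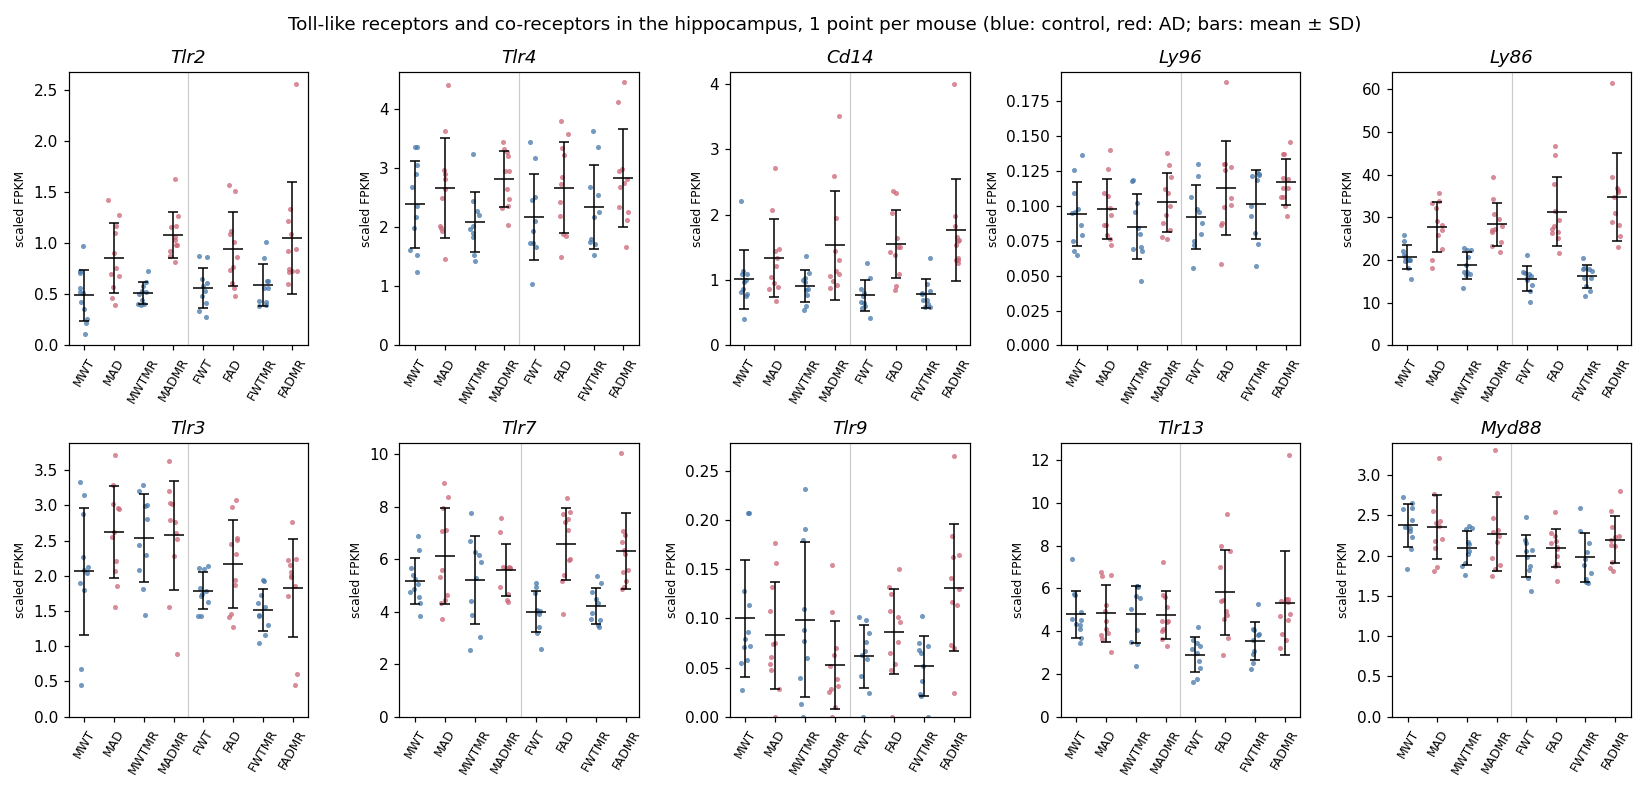
Scaled FPKM of each gene (vertical axes, from 0) in the 8 groups (horizontal axes), with 1 point per mouse, blue for control and red for AD mice, and bars for the mean ± SD. The Ly86 points of AD females lie wholly above those of control females on the same feed, while Tlr13 points of AD and control males cover the same range.

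Ly86 separated the genotypes completely in females. Control females on standard feed ranged from 10.2 to 21.2 FPKM with a median of 16.0, and AD females on that feed from 21.5 to 46.8 with a median of 28. On restricted feed, controls ranged from 11.7 to 20.4 (median 16.6) and AD females from 23.1 to 61.5 (median 34.7). Every AD female was thus above every control female on the same feed, which was true of 0.0757% of rows on standard and 0.132% on restricted feed. Males overlapped more. On standard feed the ranges were 15.7 to 25.9 (median 20.1) in controls and 18.1 to 35.8 (median 28.2) in AD males. On restricted feed they were 13.4 to 22.8 (median 18) and 21.9 to 39.4 (median 27.3), and 10 of 11 AD males lay above the highest control. The Ly86 difference was 0.94 ± 0.12 in females on standard feed (adjusted p 7.44e-08) and 1.03 ± 0.12 on restricted feed (adjusted p 3.46e-09). It was 0.57 ± 0.12 in males on restricted feed (adjusted p 0.0238) and 0.39 ± 0.12 in males on standard feed (adjusted p 0.325). Mean levels of AD mice were 2.0 and 2.14 times those of controls in the female groups, and 1.34 and 1.51 times in the male groups, in each case standard feed first.

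Tlr2 separated the genotypes completely only in males on restricted feed. There, control mice ranged from 0.393 to 0.728 FPKM (median 0.517) and AD mice from 0.820 to 1.63 (median 1.03), a separation found in 0.0473% of rows. The mean ratio was 2.10 and the difference 0.46 ± 0.10 (adjusted p 0.0292). In males on standard feed, controls ranged from 0.113 to 0.975 (median 0.516) and AD mice from 0.398 to 1.42 (median 0.761). In females the ranges were 0.283 to 0.874 (median 0.556) and 0.485 to 1.57 (median 0.870) on standard feed, and 0.384 to 1.01 (median 0.564) and 0.603 to 2.56 (median 0.925) on restricted feed. These 3 pairs of groups overlapped, and their differences of 0.32, 0.30 and 0.34 had adjusted p-values of 0.324, 0.169 and 0.0560. The size of the Tlr2 difference varied little between the 4 pairs of groups, from 0.30 to 0.46, although it passed the test in 1 of them.

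Cd14 was higher in AD females on both feeds. Control females ranged from 0.415 to 1.26 FPKM (median 0.715) on standard and from 0.582 to 1.33 (median 0.748) on restricted feed. AD females ranged from 0.855 to 2.37 (median 1.5) and from 1.26 to 4.01 (median 1.6). In each pair, 8 of 11 AD females were above the highest control. The differences were 0.52 ± 0.13 (adjusted p 0.0269) and 0.60 ± 0.13 (adjusted p 0.00241). In males the medians were 0.969 in controls and 1.21 in AD mice on standard feed, and 0.914 and 1.13 on restricted feed, with differences of 0.20 ± 0.12 (adjusted p 0.804) and 0.36 ± 0.13 (adjusted p 0.333).

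Tlr4, the receptor that Cd14 and Ly96 serve, had overlapping ranges in every pair of groups. Its median was 2.36 FPKM in MWT, 2.66 in MAD, 1.99 in MWTMR, 2.96 in MADMR, 2.02 in FWT, 2.74 in FAD, 2.22 in FWTMR and 2.76 in FADMR. The 4 differences lay between 0.11 and 0.31, none past the test. The average over all groups, with adjusted p 0.0719, passed when any of 7 libraries was left out (adjusted p 0.0397 to 0.0468). These were FAD replicate 6, FADMR replicate 5, FWT replicate 6, FWTMR replicate 5, MAD replicate 4, MWT replicate 1 and MWTMR replicate 4. Ly96 ranged from 0.0464 to 0.189 FPKM over all mice, with group medians between 0.0821 and 0.113.

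Among the endosomal receptors, Tlr7 and Tlr13 differed with genotype in females. Tlr7 had medians of 4.04 FPKM in FWT and 7.10 in FAD, where 10 of 11 AD mice exceeded the highest control. On restricted feed the medians were 4.15 and 6.20, with 8 of 11 AD mice above the highest control. The differences were 0.59 ± 0.12 (adjusted p 0.00473) and 0.47 ± 0.12 (adjusted p 0.0283). Male medians were 5.04 in MWT, 5.58 in MAD, 5.59 in MWTMR and 5.66 in MADMR, with differences of 0.18 ± 0.12 (adjusted p 0.854) and 0.13 ± 0.12 (adjusted p 0.701).

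Tlr13 ranged from 1.61 to 4.18 FPKM (median 3.06) in FWT and from 2.89 to 9.46 (median 5.39) in FAD. In FWTMR it ranged from 2.22 to 5.26 (median 3.70) and in FADMR from 3.21 to 12.3 (median 4.81). The difference was 0.78 ± 0.15 on standard feed (adjusted p 0.00140) and 0.44 ± 0.15 on restricted feed (adjusted p 0.122). Male medians were 4.53 in MWT, 4.46 in MAD, 5.29 in MWTMR and 4.46 in MADMR. The male differences were 0.00 ± 0.15 on each feed, with 95% intervals from -0.29 to 0.29 on standard and from -0.29 to 0.30 on restricted feed.

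Tlr3 and Tlr9 did not pass in any genotype comparison. Tlr3 medians of controls and AD mice were 2.09 and 2.62 FPKM in males on standard feed, 2.62 and 2.76 in males on restricted feed, 1.76 and 2.31 in females on standard feed, and 1.5 and 2.0 in females on restricted feed. The lowest Tlr3 values, in MWT, MADMR and FADMR, were 0.455, 0.896 and 0.452. Tlr9 ranged from 0 to 0.265 FPKM over all mice. In the fit with no limit on low values its difference was 0.10 ± 0.03 in females on restricted feed (adjusted p 0.0807), with 8 of 11 AD mice above the highest control, and -0.06 ± 0.03 in males on that feed (adjusted p 0.605). Myd88 had group means between 1.98 ± 0.31 (SD, n = 10, FWTMR) and 2.38 ± 0.27 (SD, n = 11, MWT), and its 4 genotype differences lay between -0.01 and 0.11, none past the test.

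Counted by group, none of the 8 tested genes passed in males on standard feed (0.0662% of all rows), where 1510 rows and the differences of Tlr2, Tlr3 and Ly86 had an unadjusted p under 0.05. Ly86 and Tlr2 passed in males on restricted feed (0.0993% of rows higher), 4 genes in females on standard feed (0.317%) and 3 in females on restricted feed (0.927%). Several of these calls lay close to the threshold and were lost without any 1 of 5 or 6 libraries, while the differences moved little. Over all fits that left out 1 library, the difference was 0.42 to 0.48 for Tlr2 and 0.52 to 0.60 for Ly86 in males on restricted feed, 0.47 to 0.56 for Cd14 in females on standard feed and 0.41 to 0.50 for Tlr7 in females on restricted feed. Without MADMR replicate 2 or MWTMR replicates 3 or 10, neither Ly86 nor Tlr2 passed in males on restricted feed. Ly86 was also lost there without MADMR replicate 6 or MWTMR replicate 4, and Tlr2 without MADMR replicate 4 or MWTMR replicates 1 or 5. The adjusted p then reached at most 0.0542 for Ly86 and 0.0799 for Tlr2. In females on standard feed the Cd14 call was lost without FAD replicates 8, 10 or 11 or FWT replicates 1 or 10 (adjusted p up to 0.0917). In females on restricted feed the Tlr7 call was lost without FADMR replicate 10 or FWTMR replicates 1, 4, 5 or 6 (adjusted p up to 0.0906). Tlr2 passed in females on restricted feed when any of 8 libraries was left out (adjusted p 0.0325 to 0.0487), namely FAD replicate 8, FADMR replicates 3, 4, 5, 9 and 11, and FWTMR replicates 3 and 7. FADMR replicate 10 had the highest value of its group for Tlr2, Tlr7, Tlr13, Cd14 and Ly86.

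**Figure D2:**
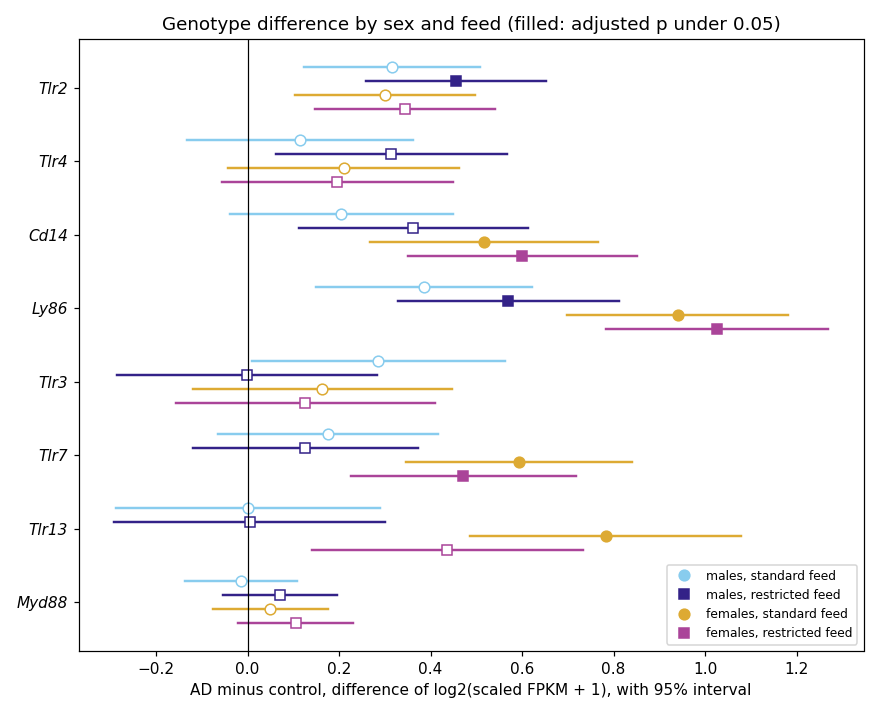
Difference of log2(scaled FPKM + 1) between AD and control mice (horizontal axis) for the 8 tested genes (vertical axis), by sex and feed, with 95% intervals and filled symbols where the adjusted p was under 0.05. For Ly86, Tlr13, Tlr7 and Cd14 the female symbols lie to the right of the male ones, and for Tlr2 all 4 symbols lie between 0.30 and 0.46. The interaction of genotype with sex passed for Ly86 and Tlr13 only.

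The difference of the genotype effect between sexes was tested as an interaction. The effect was greater in females for Tlr13 by 0.61 ± 0.15 and for Ly86 by 0.51 ± 0.12, each with adjusted p 0.0398, 2 of 8 genes against 0.307% of all rows. For Tlr7 the interaction was 0.38 ± 0.12 (adjusted p 0.0761), for Cd14 0.27 ± 0.12 (adjusted p 0.181) and for Tlr2 -0.06 ± 0.10 (adjusted p 0.724). Over both feeds, in comparisons added after the values were seen, 5 genes were higher in AD females than in control females (1.7% of rows). The differences were 0.98 ± 0.09 for Ly86, 0.61 ± 0.11 for Tlr13, 0.56 ± 0.09 for Cd14, 0.53 ± 0.09 for Tlr7 and 0.32 ± 0.07 for Tlr2. In males, Ly86 (0.48 ± 0.08) and Tlr2 (0.39 ± 0.07) were higher (0.241% of rows). The male values of Tlr13, Tlr7 and Cd14 were 0.00 ± 0.10, 0.15 ± 0.09 and 0.28 ± 0.09.

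The size of both interactions changed little when single libraries were left out (0.55 to 0.65 for Tlr13 and 0.46 to 0.53 for Ly86 over 85 fits), but the adjusted p lay near the threshold. It rose to 0.0604 for both genes with no limit on low values. It was above 0.05 in 27 of 85 fits that each left out 1 library for Tlr13 (0.0503 to 0.0628) and in 25 of 85 for Ly86 (0.0507 to 0.0621), with such libraries in all 8 groups. Without 3 of the libraries in turn, the Tlr7 interaction passed (adjusted p 0.0287 to 0.0491). With the mean level of homeostatic microglia markers as a covariate, the interactions were 0.42 ± 0.14 for Tlr13 (adjusted p 0.425) and 0.31 ± 0.11 for Ly86 (adjusted p 0.435), and 0 of all 21145 rows passed in either direction, against 65 higher and 132 lower without it. The microglia markers Tmem119 (0.38 ± 0.10, adjusted p 0.0409) and Tyrobp (0.64 ± 0.13, adjusted p 0.0250) had interactions in the same direction. They were picked after their values were seen, and 0.307% of all rows were higher in this comparison. Pooled over both feeds, the means of P2ry12 and Cx3cr1 were higher in AD mice of each sex. P2ry12 had means of 4.17 FPKM in control and 5.81 in AD females, and 7.72 and 10.2 in males. For Cx3cr1 the means were 2.63 and 3.45 in females, and 3.35 and 3.94 in males. In females on standard feed alone, the P2ry12 mean was 5.23 in controls and 4.82 in AD mice. Neither gene passed the genotype average in the limma fit with no limit on low values (adjusted p 0.723 for P2ry12 and 0.401 for Cx3cr1). A part of microglia in the interactions was not tested.

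The sexes were set apart among control mice, in a comparison added after the values were seen. Tlr13 was lower in control females than in control males by a difference of -0.46 ± 0.11 (adjusted p 0.000321), with means of 3.22 ± 0.90 FPKM (SD, n = 20) and 4.78 ± 1.2 (SD, n = 21). Ly86 was lower by -0.30 ± 0.09 (adjusted p 0.00341), with means of 15.9 ± 2.75 and 19.8 ± 3.06. Tlr3 (-0.28 ± 0.10, adjusted p 0.0200), Tlr7 (-0.26 ± 0.09, adjusted p 0.0132) and Myd88 (-0.12 ± 0.04, adjusted p 0.0251) were also lower, which made 5 of 8 genes against 25.1% of all rows. Counted in either direction, 48% of all rows passed in this comparison. The labels name no batch, so a difference in processing between the sexes cannot be told apart from sex. Tlr9, in the fit with no limit on low values, was lower by -0.06 ± 0.02 (adjusted p 0.0449). With FPKM as deposited, the calls of Tlr3 (adjusted p 0.0859), Tlr7 (0.106) and Myd88 (0.406) were lost. Among AD mice Tlr3 was lower in females (-0.27 ± 0.10, adjusted p 0.0428, with 9.58% of rows lower), a call lost without any 1 of 18 libraries (adjusted p 0.0511 to 0.0869). Tlr13 and Ly86 were then at 0.15 ± 0.10 (adjusted p 0.330) and 0.21 ± 0.08 (adjusted p 0.0792).

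Averaged over genotype and feed, Tlr3 and Myd88 were lower in females, 2 of 8 genes against 26.6% of all rows, a share near that of rows in general. Counted in either direction, 51% of all rows passed. The Tlr3 difference was -0.28 ± 0.07 (adjusted p 0.000841), with levels of 1.83 ± 0.55 FPKM in 42 females and 2.45 ± 0.76 in 43 males (SD). The Myd88 difference was -0.09 ± 0.03 (adjusted p 0.00999), with 2.07 ± 0.28 and 2.28 ± 0.36 FPKM, and it did not pass with FPKM as deposited. Tlr13 stood at -0.15 ± 0.07 (adjusted p 0.0735) and passed without FAD replicate 8, FADMR replicate 10, FWTMR replicate 10 or MWTMR replicate 3 (adjusted p 0.0224 to 0.0498).

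Methionine restriction moved none of the 8 tested genes past the threshold. That held for the average over sex and genotype (0.118% of all rows passed), for control males (0%), AD males (0.0142%), control females (0.0662%) and AD females (0.0142%), and for the interactions of feed with genotype (0.00473%) and with sex (0%). By unadjusted p, 1534 rows were under 0.05 in the average. The value with the lowest unadjusted p among the 8 genes in these comparisons was the sex-by-feed interaction of Tlr3, at -0.28 ± 0.14 (adjusted p 0.587). In the average the Tlr2 difference between feeds was 0.08 ± 0.05, with a 95% interval from -0.02 to 0.18. These intervals do not show that the feeds act alike.

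The members were then compared across mice after subtraction of group means. All 28 pairs of tested genes had a positive Pearson correlation, and 19 pairs passed for both Pearson's r and Spearman's rho in permutations within groups (100000 permutations, two-sided, Benjamini-Hochberg over 28 pairs). The X-linked RNA sensors Tlr7 and Tlr13 had the highest value, r = 0.595 and rho = 0.56 (permutation p 1e-05 for each, the smallest these permutations can give; adjusted p 0.000140 and 0.000187). Without the 2 mice whose Tlr7 value lay farthest from its median, r was 0.57. It was 0.71 within AD mice and 0.44 within control mice. Tlr2 and Cd14, both of the cell surface, had r = 0.52 and rho = 0.47 (adjusted permutation p 0.000140 and 0.000240). Without the 2 mice whose Tlr2 value lay farthest from its median, r was 0.45. Tlr2 and Ly86 had r = 0.40 and rho = 0.27 (adjusted permutation p 0.00268 and 0.0301), with 0.62 within AD and -0.07 within control mice. Myd88 passed with Cd14 only (r = 0.34, rho = 0.28, adjusted permutation p 0.00957 and 0.0233), and that value was 0.58 within males and -0.02 within females. Tlr3 and Tlr2 gave r = 0.08 (adjusted permutation p 0.560). Values of 1 mouse share its library, scaling and dissection.

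**Figure D3:**
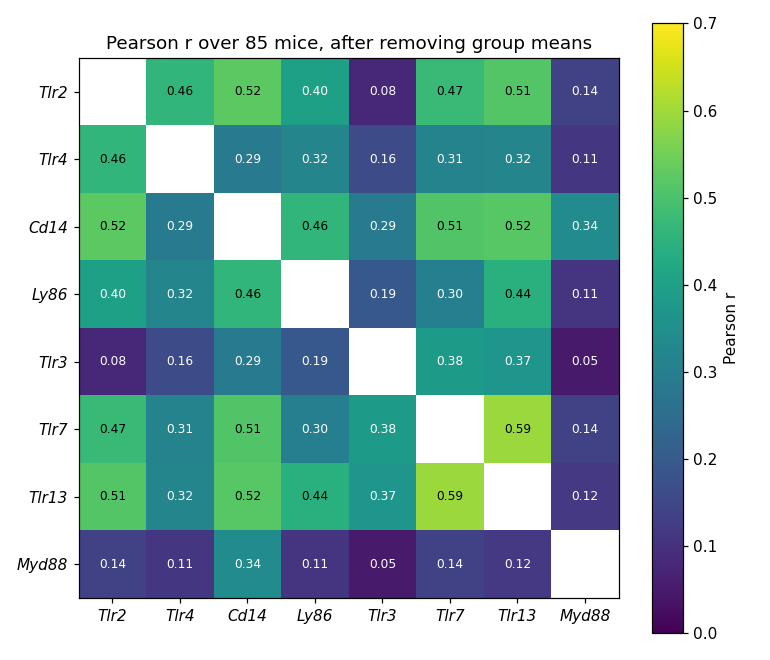
Pearson r over 85 mice between each pair of the 8 tested genes after removal of the group means, with colour from 0 to 0.7. Tlr2, Tlr7, Tlr13 and Cd14 form the block of highest values, up to 0.595, and the row of Myd88 holds the low ones, with 0.34 at most.

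The genes that varied most like each member, among 11252 single-symbol rows and by the same residual r over 85 mice, differed between members. Ly86 varied most like Fcer1g (0.83), Tyrobp (0.80) and Itgam (0.79), signalling and adhesion genes of myeloid cells. Tlr2 varied most like the lysosomal gene Cd68 (0.63), the endosomal transporter Slc15a3 (0.63) and the lectin Clec7a (0.62). Tlr7 and Tlr13 shared Plek as the nearest gene (0.68 each), followed by Kcnk6 (0.63) and Rin2 (0.60) for Tlr7 and by Anxa3 (0.66) and Inpp5d (0.66) for Tlr13. Cd14 was nearest to Hcar2 (0.74), Tnfrsf1a (0.68) and Capg (0.66). Tlr4 was nearest to Timp3 (0.61), Chsy1 (0.56) and Zfp36l1 (0.55), Tlr3 to Rnf24 (0.66), Ube2l3 (0.59) and Poc1b (0.59), and Myd88 to Bag3 (0.65), Odc1 (0.63) and Pdlim4 (0.63). For reference, r with the plaque-microglia gene Cst7 was 0.64 for Ly86, 0.59 for Tlr2 and 0.54 for Tlr13, and -0.05 for Myd88. With Trem2 it was 0.68 for Ly86, 0.41 for Tlr2 and 0.01 for Myd88, and with the homeostatic marker P2ry12 it was 0.19 at most, for Tlr7. With Tmem119, another homeostatic marker, it was 0.72 for Ly86, 0.50 for Tlr13, 0.38 for Tlr3, 0.32 for Tlr7 and 0.16 for Myd88. With Cx3cr1, also a homeostatic marker, it was 0.22 at most, for Ly86. It was 0.016 for Tlr13, -0.004 for Tlr3, -0.015 for Tlr7 and -0.005 for Myd88. These values are descriptions and carry no test.

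Other genes of the pathway were grouped by role, and each count below is read beside the 1.22% of all rows that were higher in AD mice and the median difference of all rows, -0.01. Of 11 trafficking and endosomal protease genes, 4 were higher in AD mice and none lower, with a list median of 0.05. They were the locus of Ctss, an endosomal protease (0.52), Slc15a3 (0.45), the protease Lgmn (0.19) and Unc93b1, the chaperone that carries endosomal receptors out of the endoplasmic reticulum (0.18). Unc93b1 rose from a mean of 2.27 FPKM in 41 controls to 2.74 in 44 AD mice. Of 14 tested adaptor and kinase genes only Pik3ap1, which links receptors to PI3 kinase, was higher (0.25 ± 0.04), and the list median was 0.05. Irak2 (0.08 ± 0.05, adjusted p 0.512) and Traf6 (0.07 ± 0.05, adjusted p 0.582), which relay the Myd88 signal, did not pass. Other adaptors and kinases had smaller p and did not pass either. In the fit with no limit on low values these were Chuk (0.21 ± 0.08, adjusted p 0.285), Traf3 (-0.09 ± 0.04, adjusted p 0.349) and Ticam1 (0.32 ± 0.16, adjusted p 0.492).

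Of 9 tested transcription factor genes, Spi1 (PU.1, 0.32) and Irf5 (0.24) were higher, with a list median of 0.04. In the limma fit with no limit on low values, Irf5 (0.24 ± 0.07, adjusted p 0.054) did not pass, while Spi1 did (adjusted p 6.26e-07). The NF-kB subunit genes Nfkb1 (0.04 ± 0.05, adjusted p 0.779) and Rela (-0.02 ± 0.04, adjusted p 0.846) did not pass. Of 11 tested inhibitors, the locus that joins Dok3 with Ddx41 was lower (-0.12 ± 0.03, adjusted p 0.0307) and none was higher, with a list median of -0.02, while 0.482% of all rows were lower. Tnfaip3 (A20) and Nfkbia were at -0.09 ± 0.08 (adjusted p 0.631) and -0.03 ± 0.05 (adjusted p 0.858). Of 18 genes known to be induced by these receptors, 3 were tested, with a median of 0.26. Ccl3, a chemokine, was higher by 1.42, with means of 0.797 FPKM in controls and 4.02 in AD mice, and the co-stimulatory gene Cd86 by 0.26. None of 5 tested endogenous ligand genes passed, with a list median of 0.12; Vcan was at 0.14 ± 0.07 (adjusted p 0.385) and Tnc at 0.13 ± 0.07 (adjusted p 0.436).

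Several related genes lay below the level at which rows were tested, and the values that follow, chosen after they were seen, come from the fit with no such limit. Cd180, the receptor that Ly86 serves, had means of 0.152 FPKM in controls and 0.332 in AD mice and a difference of 0.21 ± 0.02 (adjusted p 1.11e-10). Tlr1, a partner of Tlr2, had means of 0.433 and 0.642 (0.19 ± 0.04, adjusted p 0.000215). Irf8, a transcription factor of myeloid cells, had means of 0.457 and 0.751 (0.26 ± 0.03, adjusted p 1.91e-10). Of the 8 genes of the list of other receptors and partners below that level, 3 were higher in AD mice in that fit, the third being Tlr12, against 0.816% of all 47069 rows in it. Of genes below that level, 4 of 15 induced genes (Ccl4, Cxcl10, Il1a and Ccl5) and 1 of 4 inhibitors (Il1rl1) were also higher there, the other inhibitors and all 5 adaptor and kinase genes not passing. Some of these levels were near 0. Means in controls and AD mice were 0.0033 and 0.0073 FPKM for Il1rl1, listed at 0 in 19 libraries. They were 0.0034 and 0.0163 for Ccl4, at 0 in 11 libraries, 0.035 and 0.111 for Cxcl10, 0.078 and 0.163 for Ccl5 and 0.511 and 0.764 for Il1a. The 1 gene of the list of other receptors and partners that was tested, Lbp, was at -0.06 ± 0.13 (adjusted p 0.886).

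**Figure D4:**
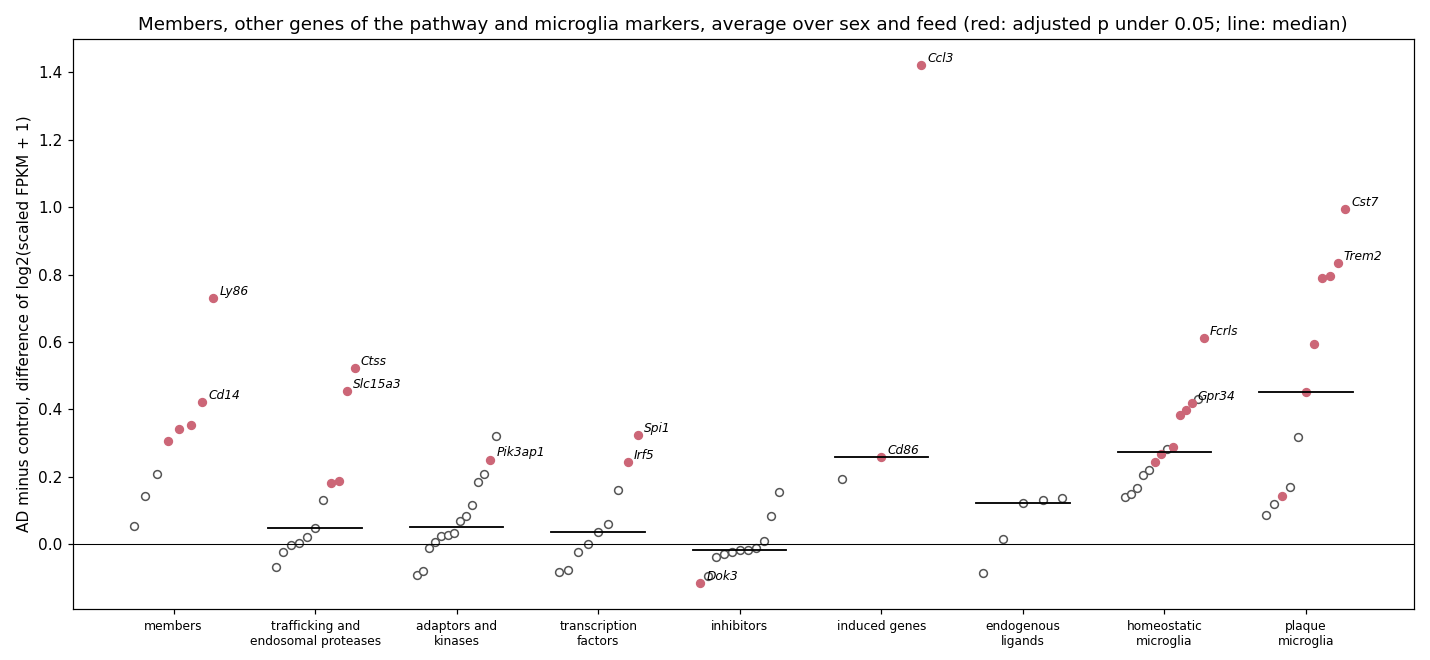
Difference of log2(scaled FPKM + 1) between AD and control mice, averaged over sex and feed (vertical axis), for the 8 tested members, the other genes of the pathway by role and 2 lists of microglia markers (horizontal axis), with 1 circle per gene, red where the adjusted p was under 0.05, and a line at the median of each list other than the members. The microglia lists have medians of 0.28 and 0.45, and the adaptor, transcription factor and inhibitor lists have medians near 0.

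Some markers of microglia were higher in AD mice, as were some of the members. Of 14 tested homeostatic microglia markers, 7 were higher in AD mice and none lower, with a median of 0.28, and their summed level was 171 ± 33.6 FPKM in 41 controls (112 to 253) and 231 ± 54.1 in 44 AD mice (102 to 418). Of 11 tested plaque-microglia markers 7 were higher, with a median of 0.45, but Cst7, Clec7a and Igf1 among these 7 reached the tested rows through AD mice, with 0, 0 and 1 control mice at 1 FPKM or more. In the fit with no limit on low values the difference of Cst7 was 0.99 ± 0.07 (adjusted p 1.85e-18). Trem2, at 1 FPKM or more in every mouse, had means of 16.1 and 31.5 FPKM in controls and AD mice and rose by 0.83 ± 0.08 (adjusted p 2.45e-14). The summed level of this list was 965 ± 151 FPKM in controls and 1097 ± 195 in AD mice (SD), but the joined locus of Lpl made up means of 724 and 772 of it, so it is no measure of plaque microglia. P2ry12 was at 0.43 ± 0.34 (adjusted p 0.611); 29 mice had less than 1 FPKM and 56 had more, with both kinds in every group. Markers of monocytes and neutrophils were near absent: 7 of 9 had a median under 0.05 FPKM, the medians of Ly6g, Camp, Plac8 and Retnlg were 0, and the summed level was 1.21 ± 0.76 in controls and 1.47 ± 0.60 in AD mice. Of 6 astrocyte markers 1 passed. Gfap, their filament protein gene, was higher in AD mice by 0.71 ± 0.07 (adjusted p 1.21e-11), with means of 1403 and 2323 FPKM. The other 5 did not pass. The astrocyte list summed to 2025 ± 366 FPKM in controls (1325 to 2677) and 3007 ± 722 in AD mice (1730 to 4691). Gfap made up most of this sum, which is therefore no measure of astrocytes as a whole. The part of astrocytes in the values of the members was not tested. Markers of border macrophages summed to 2.20 ± 0.75 and 2.25 ± 0.64 FPKM (SD).

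With the mean level of the homeostatic microglia markers as a covariate, 4 of the 5 genotype differences kept their call. They were 0.55 ± 0.06 for Ly86 (adjusted p 8.76e-11), 0.37 ± 0.07 for Cd14 (adjusted p 0.00161), 0.29 ± 0.06 for Tlr2 (adjusted p 0.00132) and 0.26 ± 0.07 for Tlr7 (adjusted p 0.0370). Tlr13 was at 0.14 ± 0.08 (adjusted p 0.401). In that fit 109 of all 21145 rows were higher in AD mice and 167 lower, against 257 and 102 without the covariate. With 4 covariates for tissue next to the hippocampus, Tlr13 was at 0.25 ± 0.08 (adjusted p 0.111) and the other 4 kept their call. There, 146 of all 21145 rows were higher in AD mice and 52 lower.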

How the data were processed

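Hippocampal RNA of 85 mice was measured. The deposited values are FPKM per assembled locus in 1 table. Per the submitters' processing notes, the authors used Trimmomatic 0.38, HISAT2 and StringTie 1.3.4d on GRCm38.p6; the sources used here give no options, no strand setting and no account of how FPKM of transcripts became FPKM of a gene. Depth is unknown. The 85 columns were matched to samples by label, and no pair of columns was identical.

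Of 56090 rows, those with an equal symbol were summed to 53895. Libraries were divided by median-of-ratios factors (0.885 to 1.13). Rows reaching 1 FPKM in 10 or more libraries (21145) were analysed as log2(scaled FPKM + 1) with limma 3.58.1 in R 4.3.3, with a mean for each of 8 groups, trend, robust prior and 77 residual degrees of freedom. P-values are two-sided, adjusted by Benjamini-Hochberg within each of 18 comparisons, of which 4 (genotype within sex, sex within genotype) were added after the values were seen. The code was tested on simulated data. The labels do not say whether mice of a group shared a litter, cage or batch.

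The members, the gene lists and the tests were chosen with earlier results of these data known. Besides all members, the text names up to 6 pathway genes per comparison by smallest p among those past the threshold, and the 2 of smallest p where none passed. Irak2, Traf6, Chuk, Traf3, Ticam1 and Cx3cr1 were named outside this rule. Rela, Nfkb1, Tnfaip3, Nfkbia, Gfap, Igf1, Lpl, Tmem119 and Tyrobp were chosen after their values were seen. Alternatives were a filter at 5 FPKM or none, a pseudocount of 0.1, libraries unscaled or scaled to an equal total, neither trend nor robust prior, a replicate block, only the groups compared, tissue covariates, a microglia covariate (and, added later, without P2ry12), the highest row of each member, and each library left out.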

Additional observations from a re-analysis of the deposited data

Results flagged for a closer look

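Cd14 in FWTMR replicate 7 was at 1.33 FPKM, the highest of its group, and stood apart from the next mouse at 0.942. This was 1 of 30 sets of a gene and a group of 10 mice that were checked (groups of 11 were not), and chance sets about 1 in 20 groups apart.

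The genotype difference was greater in females than in males for Tlr13 by 0.61 ± 0.15 and for Ly86 by 0.51 ± 0.12 on the log2 scale (limma interaction, adjusted p 0.0398 for each). All 11 AD females on each feed exceeded every control female for Ly86. With the microglia marker covariate the values were 0.42 ± 0.14 and 0.31 ± 0.11, and 0 of all 21145 rows passed.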

How the results depend on the processing

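No called difference changed sign in any alternative. Counts of members past the threshold moved by more than 1.5 times as follows. With a filter at 5 FPKM, which leaves fewer members to test, the count fell to 3 in the genotype average, 3 in females, 1 in males, 1 in males on restricted feed, 0 for sex on average, 3 for sex in controls and 0 for sex in AD mice. Of all 12888 rows in that fit, 124, 186, 30 and 12 were higher in AD mice in the genotype comparisons, in the same order. In the sex comparisons 4169, 4001 and 1635 were lower in females. With FPKM as deposited or an equal total per library the count of members was 1 for sex on average and 2 for sex in controls. Rows lower in females were then 3260 or 3472 on average, and 2606 or 2793 in controls. With no filter the count of members was 0 for genotype by sex (7 of 47069 rows higher and 10 lower) and 0 for sex in AD mice (1772 lower). With pseudocount 0.1 it was 0 for sex in AD mice (1976 of all 21145 rows lower). With 4 tissue covariates it was 1 for genotype by sex (161 rows higher and 163 lower). With the microglia covariate it was 2 for genotype in females (31 rows higher) and 1 on each feed in females (21 on standard and 14 on restricted feed). It was 1 for sex in controls (2690 rows higher and 2645 lower), 2 for sex in AD mice (1626 and 2258) and 0 for genotype by sex (0 rows). Leaving P2ry12 out of the covariate gave 2, 1, 1, 1 and 0 members for the same comparisons other than sex in AD mice. Rows higher were then 22, 15, 16, 3191 and 0. Elsewhere counts of members stayed within 1.5 times. The cause was not tested.

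Replicate numbers showed no pairing of mice on average. Over 281 pairs of equal number the mean correlation of deviations was -0.01 (-0.39 to 0.39), and 12.1% were over 0.1. For pairs of other numbers the mean was 0.001. A mean cannot exclude pairing in some of the groups, and the labels do not settle it. With a replicate block the count of members was 0 for genotype by sex (0.58 ± 0.15 for Tlr13 and 0.51 ± 0.12 for Ly86, adjusted p 0.0861 for each). There, 1 of all 21145 rows passed, against 197. The count was 0 for sex in AD mice, where 1704 rows were lower in females.

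Leaving out 1 library at a time gave 5 to 6 members in the genotype average, 0 to 2 in males on restricted feed, 3 to 4 and 2 to 4 in females on standard and restricted feed, 2 to 3 for sex on average, 0 to 3 for genotype by sex and 0 to 2 for sex in AD mice. In the same order, the rows past the threshold in these fits were 291 to 461, 9 to 30, 60 to 604, 187 to 383, 10304 to 11203, 8 to 1554 and 2667 to 4036.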
